A study of Homo sapiens with 2 samples.

Results

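The genes described here carry calcium across cell membranes or control its passage. They comprise the voltage-gated calcium channel subunits, the IP3 and ryanodine receptors that release calcium from internal stores, the calcium pumps, the STIM and ORAI genes of store-operated entry, and MCU, the pore of the mitochondrial uniporter. They were taken by name, as a list of 37 gene symbols, and 36 were measured among the 19775 genes of the arrays. CACNB4 was the member not measured. The 36 genes were read by 110 of 54613 probe sets, each assigned by the platform annotation to that gene alone. RNA came from 2 stable lines of AGS, a human gastric adenocarcinoma cell line. AGS.W cells were infected with a lentivirus that carries the whole coding region of WTX (AMER1) and puromycin resistance, and AGS.veh cells are their negative control. Infected cells were selected with puromycin, no clone is named, and the RNA of each line was read on a single Affymetrix U133 Plus 2.0 array. There was thus no replicate, no test between the lines could be made, and each difference below is one between 2 cultures whose error is unknown.

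The single probe set of AMER1 itself had a log2 signal of 3.70 for AGS.W and 3.86 for AGS.veh, both below the array medians of 4.02 and 4.03, and where it lies relative to the vector's coding region was not settled here. This probe set thus showed no higher WTX RNA in AGS.W. The paper examined WTX protein of its overexpression lines by Western blot and describes AGS.W as a more efficient one. Protein was not measured on these arrays, and the names AGS.W and AGS.veh stand for what the labels say of each library. The labels of both samples name a brain tissue as the RNA source in one field and AGS cells in the others. Of epithelial markers, 5 of 7 measured genes reached the median of both arrays, with KRT18 at 10.87 in AGS.W and 11.17 in AGS.veh. EPCAM had 6.88 in AGS.W and 5.96 in AGS.veh, whereas KRT19 and CLDN3 lay below the median in both lines. Of neuronal markers 6 of 10 reached it, of glial markers 4 of 8, of striated muscle markers 1 of 8, of fibroblast markers 2 of 6 and of leukocyte markers 2 of 6, beside 61.4% of all genes. The median log2 signal of the neuronal list came to 4.74 in AGS.W and to 4.55 in AGS.veh. In that list STMN2, SYT1 and NEFL lay below the median in both lines and GAD1, GRIN1, SLC17A7, SYN1, RBFOX3 and CAMK2A above it in both. SNAP25 had 5.15 in AGS.W and 3.57 in AGS.veh, below the median there, and was at least 2.18-fold higher with the median in its place. Among fibroblast markers COL1A1 had 7.89 in AGS.W and 6.95 in AGS.veh. The median of the glial list came to 4.32 in AGS.W and to 3.93 in AGS.veh, and that of the muscle list was 2.65 in AGS.W against 2.73 in AGS.veh. Many of the channels below are best known from neurons and muscle, and the part of such cells in the results was not tested. In bulk RNA, fewer cells that express a gene and less RNA per cell cannot be told apart.

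As background, cells keep cytosolic calcium low by pumping it out through plasma membrane pumps (PMCA, the ATP2B genes) and into the endoplasmic reticulum through SERCA pumps (the ATP2A genes). Hormones and growth factors that activate phospholipase C produce IP3, which opens IP3 receptors and lets calcium out of the endoplasmic reticulum. When the store empties, STIM proteins in its membrane sense the loss and open ORAI channels in the plasma membrane, which refill it. In epithelial cells this release and entry cycle is the main route of calcium signals, whereas voltage-gated channels and ryanodine receptors are chiefly known from excitable cells.

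The comparison of AGS.W with AGS.veh asked which of these genes differ in the line labelled as overexpressing WTX. A gene was called at a 2-fold difference, the threshold of the methods. Among the 36 genes, each represented by its brightest probe set, ITPR1 and ORAI3 were called higher in AGS.W, and CACNA2D1 was called lower. These are 2 of 36 (5.56%) on the higher side, where 1.22% of all genes measured were called, and 1 of 36 (2.78%) on the lower side, where 1.35% of all genes were. Of the member probe sets, 5 of 110 were called higher and 1 lower, beside 1.07% and 1.12% of all probe sets. ITPR1 accounted for 4 of the 5. The median difference was 0.00 over the members and 0.00 over all genes, and 86.1% of members against 86.2% of all genes differed by less than 0.5 on the log2 scale. Most of these genes thus lay as close together on both arrays as genes at large did, and a few stood out. Of the 36 genes, 29 (80.6%, beside 61.4% of all genes) had a brightest probe set at or above the median in both lines, and 5 had every probe set below it in both. The 36 members had 110 probe sets, and all 19775 genes had 41091. With more probe sets per gene the brightest tends to be brighter, so the shares of 80.6% and 61.4% are not like for like.

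To show the regions upstream of the 3 genes past the threshold, the 250 bases before the annotated transcription start are given, 5′ to 3′ on the strand of the gene, from RefSeq, build GRCh38.p14. Capitals mark the letters of 5 short motifs, searched on both strands.
ITPR1 (chr3:4493098-4493347, plus strand): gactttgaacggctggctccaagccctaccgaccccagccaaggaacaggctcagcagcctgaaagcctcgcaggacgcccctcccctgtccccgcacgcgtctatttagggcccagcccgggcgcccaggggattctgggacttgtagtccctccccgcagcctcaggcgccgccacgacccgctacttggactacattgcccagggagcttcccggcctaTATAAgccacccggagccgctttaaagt
ORAI3 (chr16:30948818-30949067, plus strand): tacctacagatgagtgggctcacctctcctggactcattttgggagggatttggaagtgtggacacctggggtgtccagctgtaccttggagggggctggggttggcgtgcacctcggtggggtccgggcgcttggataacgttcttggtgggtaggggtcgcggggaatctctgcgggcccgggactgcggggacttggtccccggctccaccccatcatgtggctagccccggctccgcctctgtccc
CACNA2D1 (chr7:82443957-82444206, minus strand): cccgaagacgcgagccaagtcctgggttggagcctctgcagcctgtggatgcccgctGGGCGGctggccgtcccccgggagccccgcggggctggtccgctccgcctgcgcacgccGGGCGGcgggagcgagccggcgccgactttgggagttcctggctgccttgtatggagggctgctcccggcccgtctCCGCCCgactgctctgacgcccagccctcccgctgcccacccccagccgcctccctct
The motifs were the TATA element TATAA, the GC box GGGCGG, the CCAAT box, the NFAT core GGAAA and the hypoxia response core ACGTG, none of which overlap in these windows. ITPR1 held TATAA once, 28 bases before its start, and CACNA2D1 held the GC box at 193, 134 and 58 bases before its start, the last of these on the opposite strand. In ORAI3 none of the 5 was found. Over the 35116 windows of this length in the table, TATAA stood in 18.9%, the GC box in 42.6%, CCAAT in 32%, GGAAA in 55.6% and ACGTG in 18.5%. Over the 52 windows of the 30 members that the table holds, some with several starts, these shares were 5.77%, 65.4%, 30.8%, 36.5% and 13.5%. A match describes the letters and is not a binding site, and the arrays measured RNA and not these regions.

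ITPR1, the IP3 receptor best known from cerebellar Purkinje cells, differed most among the members. Its brightest probe set had a log2 signal of 9.70 for AGS.W and 7.38 for AGS.veh, which is 4.98-fold higher and the 11th highest difference of the 19775 genes. On a further pair of probe sets the signals were 8.40 in AGS.W with 5.79 in AGS.veh (6.09-fold), and 7.76 in AGS.W with 5.12 in AGS.veh (6.22-fold). The difference was therefore seen on 3 probe sets that lay above the median on both arrays. A dimmer probe set read 4.92 in AGS.W and 2.63 in AGS.veh, a difference of 2.29, but its AGS.veh signal lay below the array median, the range in which signal can be background. Taking the median in its place left at least a 1.85-fold difference. The last, with 1.90 on both arrays, was below the median throughout and showed no difference. As the mean over all 5 probe sets ITPR1 was higher by 1.97 on the log2 scale.

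The other IP3 receptor genes differed little. ITPR3, the form typical of secretory epithelia, had 9.49 in AGS.W and 9.55 in AGS.veh on its brightest probe set. Its 4 probe sets differed by between -0.06 and 0.24. ITPR2, known for its high affinity for IP3, had 4.55 in AGS.W and 4.62 in AGS.veh, while its 4 probe sets differed by between -0.32 and 0.14. Of the 13 probe sets of the IP3 receptor family, 4 were called higher, beside 1.07% of all probe sets, and all 4 were of ITPR1. The dimmest probe set of ITPR1 had a difference of 0, within the range of its relatives. The ryanodine receptors, which release calcium in muscle and neurons, differed little on their brightest probe sets. RYR1, the skeletal muscle form, had 4.14 in AGS.W and 4.18 in AGS.veh. RYR2, the cardiac form, had 5.80 on both arrays on its brightest probe set, whereas the other had 4.53 in AGS.W and 5.13 in AGS.veh. RYR3 lay at 1.69 in AGS.W and 1.48 in AGS.veh, below the median on both.

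**Figure D1:**
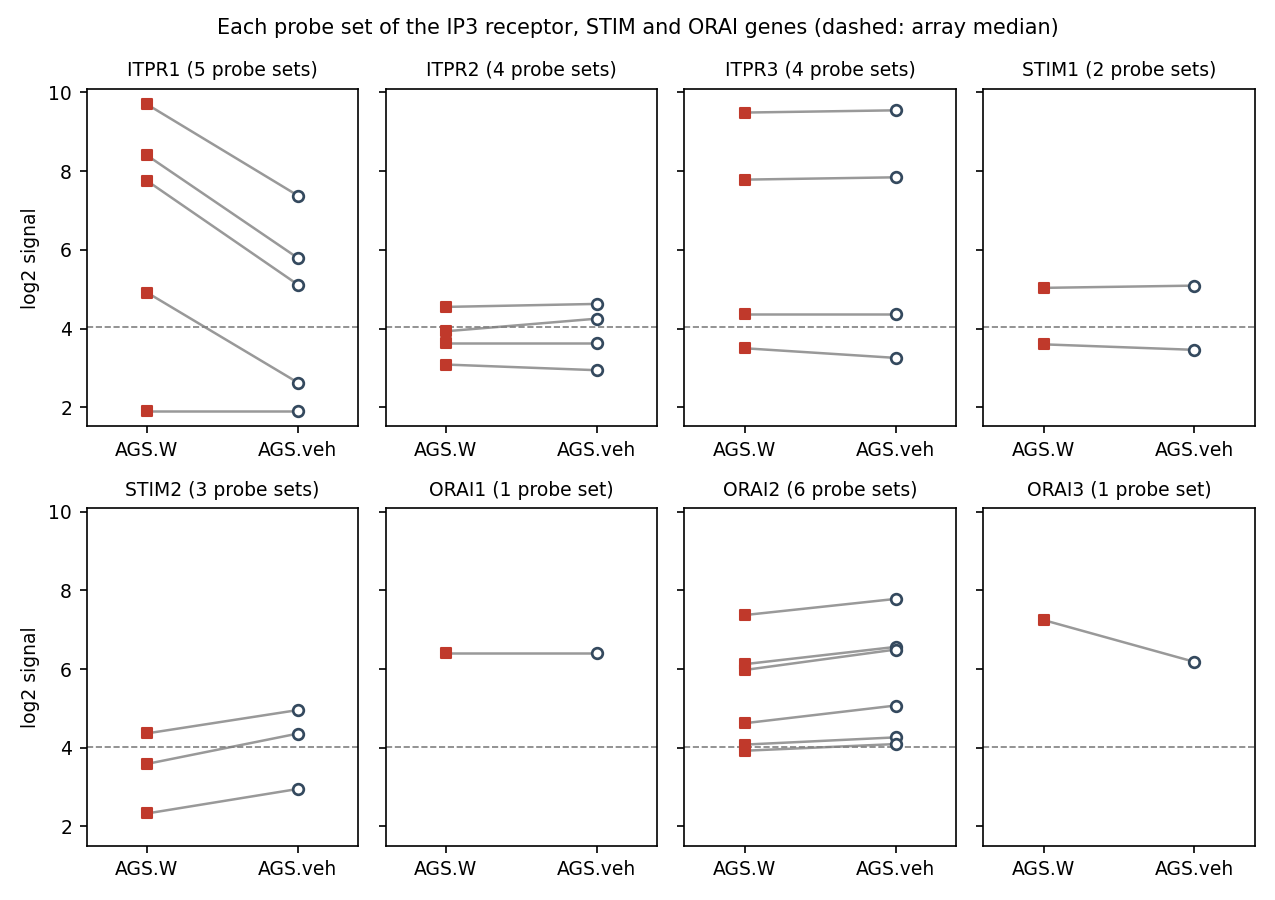
Log2 signal (vertical axis) of every probe set of the IP3 receptor, STIM and ORAI genes in AGS.W (squares) and AGS.veh (circles), 1 array each, with a line joining the values of a probe set. The lines of ITPR1 fall steeply towards AGS.veh on 4 of 5 probe sets and that of ORAI3 less so, the lines of STIM2 and ORAI2 climb towards AGS.veh, and those of ITPR2, ITPR3, STIM1 and ORAI1 are close to level.

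The genes of store-operated entry differed in opposite directions. ORAI3, a store-operated channel subunit that also forms channels gated by arachidonic acid, had 7.25 in AGS.W and 6.18 in AGS.veh on its only probe set. It was 2.09-fold higher, just past the threshold. ORAI2, a subunit found to dampen store-operated currents in mouse immune cells, had 7.37 in AGS.W and 7.78 in AGS.veh on its brightest probe set. All 6 of its probe sets were lower in AGS.W, by between -0.52 and -0.17, so that none was 2-fold apart. ORAI1, the main pore of the store-operated current, had 6.42 on both arrays.

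Of the sensors, STIM2, which responds to small falls in store calcium, was lower on all 3 of its probe sets. In AGS.W these read 4.37, 3.59 and 2.33, and in AGS.veh the same probe sets read 4.96, 4.36 and 2.95. The differences lay between -0.77 and -0.59, but the middle probe set lay below the median in AGS.W and the dimmest below it on both arrays. STIM1, the sensor that responds to deeper store depletion, had 5.03 in AGS.W and 5.09 in AGS.veh. Of 20 members with 3 or more probe sets, 2 had every probe set lower (STIM2 and ORAI2) and 2 had every one higher (ATP2B1 and CACNB1), while 13.4% of all genes with as many probe sets were wholly lower and 13.4% wholly higher. These counts are no more than the share among all genes. For ORAI2, with its 6 probe sets, the like share is that of genes with 6 or more, of which 5.25% were wholly lower. CACNA1E, CACNB2 and ATP2B2, the other members with 6 probe sets, were not wholly lower.

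**Figure D2:**
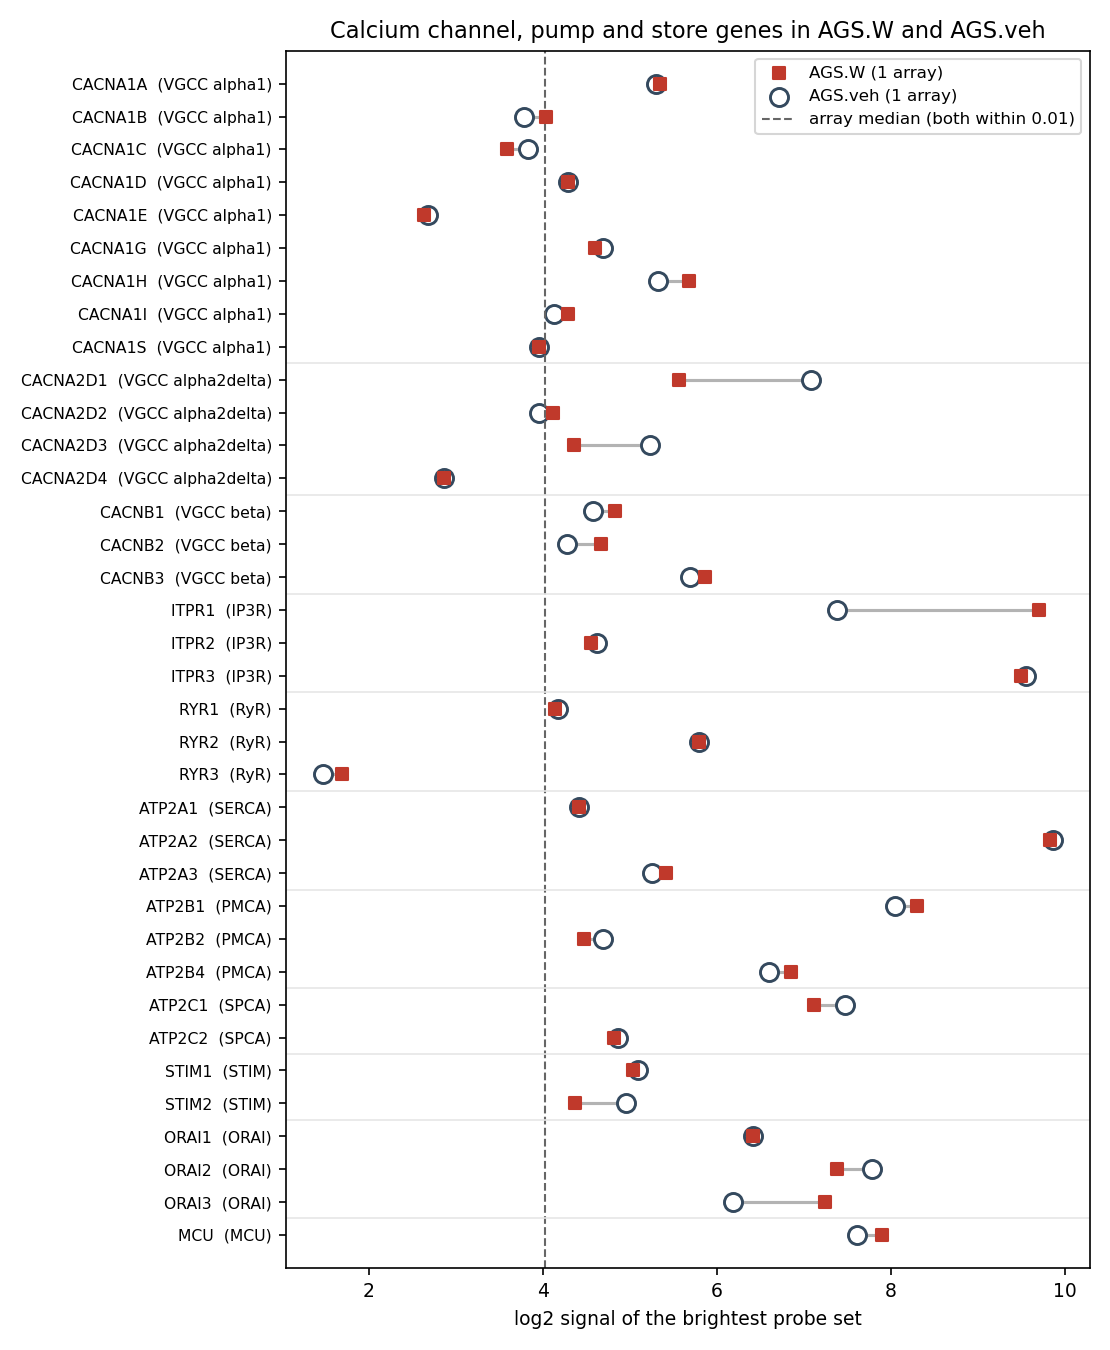
Log2 signal of the brightest probe set (horizontal axis) of each of the 36 measured genes in AGS.W (squares) and AGS.veh (circles), 1 array each, grouped by role, with the array median dashed. ITPR1 (9.70 in AGS.W, 7.38 in AGS.veh), CACNA2D1 (5.57 in AGS.W, 7.08 in AGS.veh) and ORAI3 (7.25 in AGS.W, 6.18 in AGS.veh) have the longest connecting lines, and most other pairs of symbols touch.

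Among voltage-gated channels the differences lay with the alpha2delta subunits, extracellular partners that carry channels to the cell surface. CACNA2D1, the target of gabapentin, had 5.57 in AGS.W and 7.08 in AGS.veh, 2.85-fold lower and 67th from the lowest of all genes. Its other probe set, below the median on both arrays, read 3.61 for AGS.W and 3.45 for AGS.veh, and as the mean of the pair CACNA2D1 differed by -0.67. CACNA2D3 had 4.36 in AGS.W and 5.23 in AGS.veh on its only probe set, 1.83-fold lower, and was the next lowest of the members. CACNA2D2 had 4.12 in AGS.W and 3.95 in AGS.veh, whereas CACNA2D4 had 2.87 on both arrays. Only the pair that lay above the median on both arrays was thus lower, by differences of -1.51 and -0.87.

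None of the 9 pore-forming genes was 2-fold apart, and their differences lay between -0.24 and 0.35. CACNA1A, the pore of P/Q-type channels of nerve terminals, had 5.34 in AGS.W and 5.31 in AGS.veh. The L-type gene CACNA1D had 4.29 on both arrays on its brightest probe set, while its 3 other probe sets were all higher in AGS.W, by up to 0.78 on one below the median. Of the T-type genes, which open at low voltages, CACNA1H had 5.67 in AGS.W against 5.32 in AGS.veh. CACNA1G had 4.60 in AGS.W against 4.69 in AGS.veh. CACNA1I had 4.29 in AGS.W against 4.13 in AGS.veh, so that none of the T-type genes differed by more than 0.35. CACNA1B, the N-type pore, passed the median in AGS.W alone (4.03, against 3.78 in AGS.veh), and its other probe set was lower, by -0.67. CACNA1C, CACNA1E and CACNA1S, the L-type pore of the heart, the R-type pore and the L-type pore of skeletal muscle, had every probe set below the median on both arrays. The cytoplasmic beta subunits, which help the pores reach the membrane, were slightly higher in AGS.W. CACNB1 had 4.83 in AGS.W against 4.58 in AGS.veh. CACNB2 had 4.67 in AGS.W against 4.27 in AGS.veh. CACNB3 had 5.87 for AGS.W against 5.70 for AGS.veh, and the direction held on both of its probe sets. CACNB2 had -0.16 on the brightest probe set left when those that can match several transcripts (_s_at and _x_at) were set aside.

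**Figure D3:**
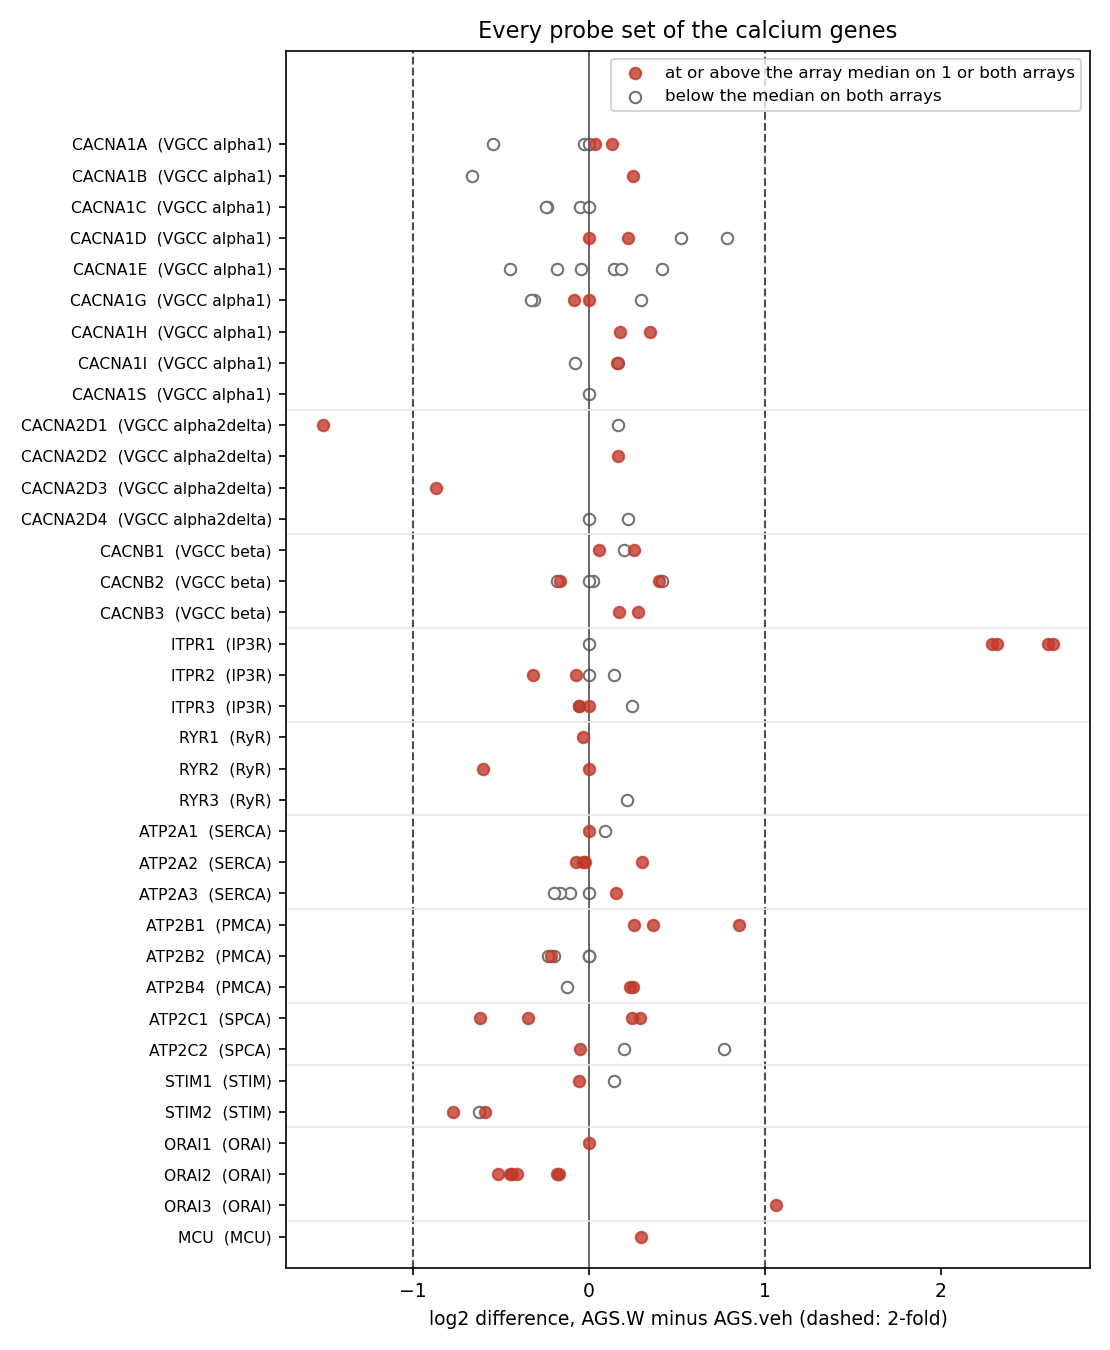
Log2 difference AGS.W minus AGS.veh (horizontal axis) of all 110 probe sets, 1 row a gene, with 2-fold dashed, where filled points lie at or above the array median on at least 1 array and open points below it on both. Past the dashed lines lie 4 probe sets of ITPR1 and 1 of ORAI3 on the right, and 1 of CACNA2D1 on the left.

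The pumps differed less than 2-fold. ATP2A2, the SERCA pump of most cells, had 9.83 in AGS.W and 9.86 in AGS.veh. ATP2A3 had 5.41 in AGS.W and 5.26 in AGS.veh on its brightest probe set, whereas 3 of its 5 probe sets were lower in AGS.W. ATP2A1, the form of fast muscle, had 4.41 on both arrays. Of the plasma membrane pumps, ATP2B1, which is expressed in most tissues, was higher on all 3 of its probe sets, at 8.29 in AGS.W and at 8.04 in AGS.veh on the brightest. On the dimmest it had 7.15 in AGS.W against 6.29 in AGS.veh. Its differences ran from 0.26 to 0.85, so that its size depended on the probe set read. ATP2B4, another widespread form, had 6.85 in AGS.W and 6.59 in AGS.veh. ATP2B2, known from hair cells and neurons, had 4.47 in AGS.W and 4.69 in AGS.veh. ATP2C1, the pump of the Golgi, gave no single direction. A pair of its probe sets was lower in AGS.W, by -0.35 and -0.62, and the other pair was higher, by 0.25 and 0.29, although all 4 were well above the median. ATP2C2, its counterpart in secretory epithelia, had 4.81 in AGS.W and 4.86 in AGS.veh, while its other probe sets, below the median, differed by 0.77 and 0.20. MCU, through which calcium enters mitochondria, had 7.90 for AGS.W and 7.60 for AGS.veh.

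**Figure D4:**
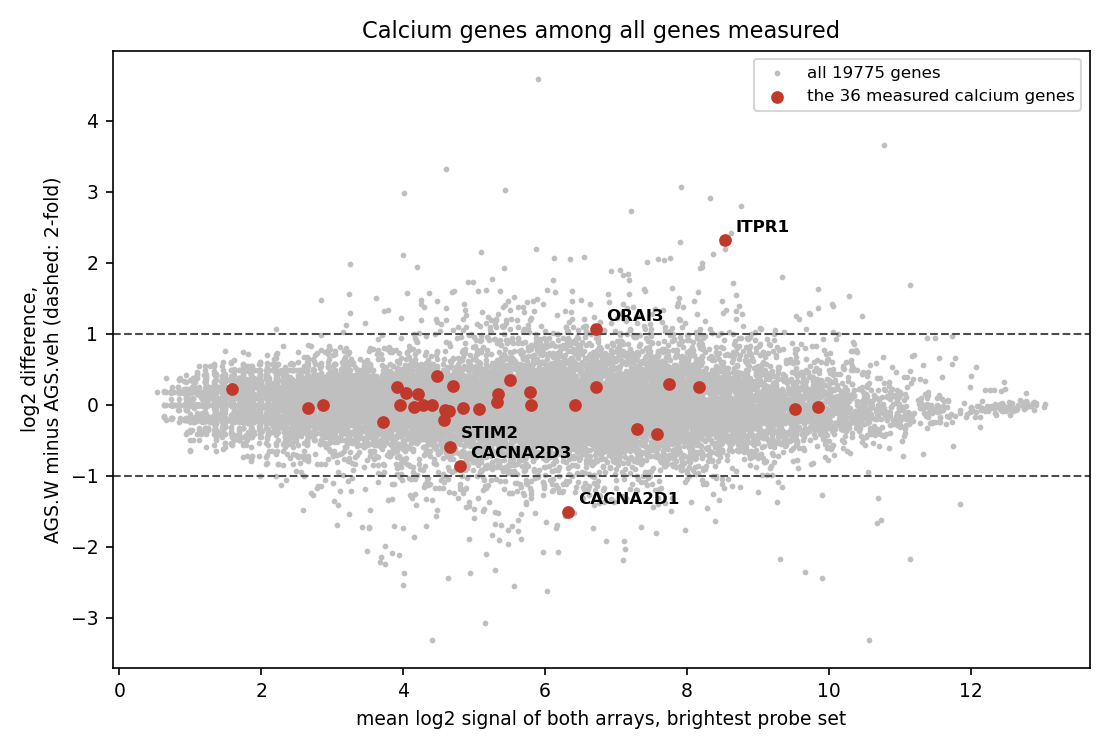
Log2 difference AGS.W minus AGS.veh (vertical axis) against mean log2 signal of both arrays (horizontal axis) for the brightest probe set of all 19775 genes (grey) and of the 36 calcium genes (red), with 2-fold dashed. ITPR1 stands high above the upper line, ORAI3 just above the upper line and CACNA2D1 below the lower one, while the other red points lie between the lines.

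Other genes of calcium handling were described from 10 lists drawn up for this purpose. Of 152 genes listed, 137 were measured, of which 1 was called higher and 1 lower, beside the 1.22% and 1.35% of all genes given above, and their median difference was -0.03. The lower gene was NFATC2, a transcription factor that enters the nucleus when calcineurin is activated by calcium. It had 7.78 in AGS.W and 9.12 in AGS.veh, 2.53-fold lower. A further bright probe set had 7.47 in AGS.W and 8.89 in AGS.veh. Its other pair lay below the median and differed by -0.20 and -0.18. In the same list of 19 measured effector genes, whose median was -0.10, RCAN1, an inhibitor of calcineurin whose gene NFAT induces, had 6.01 in AGS.W and 6.77 in AGS.veh. NFATC1 had 6.20 in AGS.W and 5.49 in AGS.veh, so that the NFAT genes did not share a direction.

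The higher gene was RCN3, a calcium-binding protein of the secretory pathway, at 7.22 in AGS.W and at 6.20 in AGS.veh, while its other probe set differed by 1.01 as well. It belongs to the list of calcium-binding proteins of the store lumen, of which 11 of 15 were higher in AGS.W and 4 lower at any size, beside 44.7% and 45.1% of all genes, with a median of 0.40. Close to the threshold were NUCB2, at 8.24 in AGS.W and at 7.26 in AGS.veh, besides the chaperones HSPA5 and HSP90B1, with differences of 0.94 and 0.93. Calreticulin (CALR), the main buffer of store calcium, had 9.43 in AGS.W and 9.34 in AGS.veh. Several of these genes are also targets of the unfolded protein response.

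In the other 8 lists no gene was 2-fold apart. Their medians lay between -0.16 for the regulators of store-operated entry and 0.13 for the regulators of store release and of pumps, which had -0.33 over its genes at or above both medians. The store-operated entry list held 5 genes, and its median was -0.004 with values below the array median set to that median. The genes that make and remove IP3, 16 of which were measured, had a median of -0.13, which was 0.02 over those at or above both medians. Over such genes the TRP and endolysosomal channels had -0.24 and the calcium-mobilising receptors -0.18, where both lists had 0 over all their genes. The phospholipase PLCD3, with the lowest difference of the IP3 list, had 6.10 in AGS.W and 6.83 in AGS.veh. PLCG2, with the highest, had 4.78 in AGS.W and 4.51 in AGS.veh. SARAF, which turns store-operated entry off, had 10.24 for AGS.W and 10.23 for AGS.veh. Around MCU, its regulator MICU2 had 7.15 in AGS.W and 7.51 in AGS.veh. SLC8B1, which returns calcium from mitochondria to the cytosol, had 5.39 for AGS.W and 5.93 for AGS.veh. In the other direction, VDAC2 of the same list had 11.60 in AGS.W and 11.05 in AGS.veh. Of the 11 genes measured in that list, 4 were higher and 7 lower at any size, beside 44.7% and 45.1% of all genes.

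**Figure D5:**
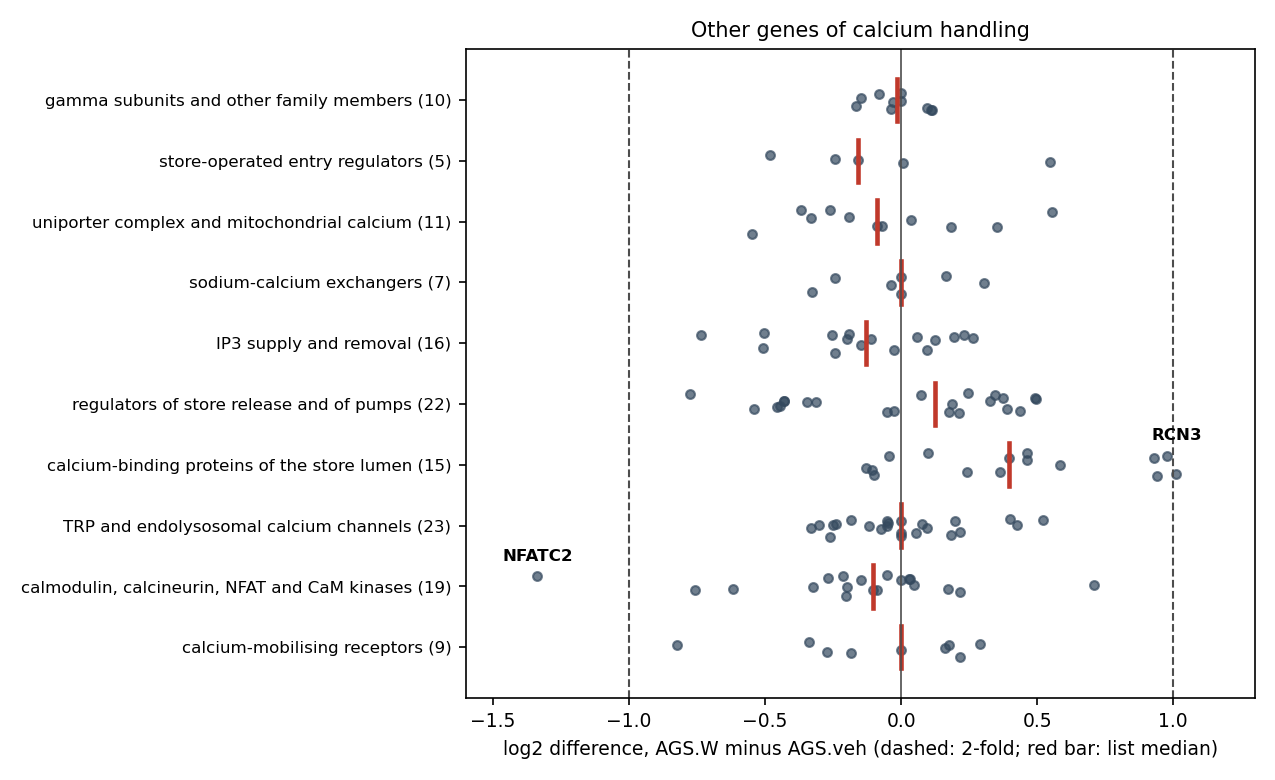
Log2 difference AGS.W minus AGS.veh (horizontal axis) of the 137 measured genes of the 10 other calcium lists, 1 point a gene with its list on the vertical axis and the number measured in brackets, where red bars are list medians and dashed lines mark 2-fold. The bar of the lumen list stands furthest to the right, at 0.40, and NFATC2 and RCN3 are the points past the dashed lines.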

How the data were processed

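Log2 signals per probe set were used as deposited, after the authors had normalized them between the arrays. The submitters' processing notes name RMA and MAS5. The part and version of each, like the probe set definition, is not given in the sources used here. Without detection calls, the array median served as a mark of dim signal, and precision is limited by having so few arrays. The log2 difference of AGS.W from AGS.veh left aside 62 control probe sets. Platform annotation gave 41091 probe sets 1 gene, 1801 several and 11721 none, and probe sets with several were not used. RefSeq (GRCh38.p14) gave current symbols by gene identifier. A gene took its brightest probe set, without a signal filter. Members with a probe set past 2-fold were given on every probe set, and other members mostly on the brightest alone, whose direction their other probe sets did not always share. Genes named were all members and 2-fold genes of other lists. Others named among them, and the motifs, were chosen after values were seen. Members and lists were chosen with earlier results of these data known. The FDR of the methods needs replicate arrays and was not computed. The calling step was tested on simulated arrays, which bears on the code and not on error between cultures. Software comprised matplotlib 3.10.9, Python 3.11.15, statsmodels 0.14.6, pandas 2.3.3 and numpy 2.4.6.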

Additional observations from a re-analysis of the deposited data

How the results depend on the processing

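No paired analysis was possible because AGS.W and AGS.veh had a single array each, which also left no replicate to omit. Moves were judged by the robust spread of gene differences at like signal, since replicate error is unknown. Centring, quantile normalization and a lowess curve moved none of the member differences beyond it. Of 248 alternative member values 227 stayed within it, and the 21 that did not, in 13 genes, came from the choice of probe sets. Of the 248 values, 21 had the opposite sign to the main value, not all of them among those that moved. No member past 2-fold changed sign. As the mean of probe sets 0 members were at least 2-fold lower, while the member median with each gene read on its most different probe set was 0.12. At 1.5-fold 3 members were lower (CACNA2D1, CACNA2D3 and STIM2), and at 3-fold 1 was higher (ITPR1) and 0 lower. Of member probe sets, 8 were higher and 8 lower at 1.5-fold, and 0 lower at 3-fold. Shares over all genes and all probe sets at 1.5-fold and 3-fold are not given here. The counts at these thresholds, also those of other calcium genes below, thus cannot be set against the arrays at large. Of other calcium genes, 2 were higher with the lowess curve removed, where NUCB2 joined RCN3, and 0 were lower as the mean of probe sets. At 1.5-fold 5 were higher and 6 lower, and at 3-fold 0 and 0. Their median was -0.00029 as the mean of probe sets, 0 with the probe set of largest difference and 0 without _x_at and _s_at probe sets. Of 90 alternative medians of single lists, 21 moved by more than their tolerance. That of the calcium-binding proteins of the store lumen was 0.30 as the mean of probe sets and 0.51 without _x_at and _s_at probe sets. The list of regulators of store release and of pumps had -0.33 with dim genes left out, and that of IP3 supply and removal had 0.02. Over genes at or above both medians, the TRP and endolysosomal channels had -0.24 and the calcium-mobilising receptors -0.18.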

Other observations

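Many dim probe sets on these arrays share exactly the same difference. Compared to 6 decimals, 47.3% of all probe sets had a difference that at least 20 probe sets shared, and their median mean signal was 2.93, against 5.57 for the other probe sets. Of the calcium genes' probe sets 51 of 110 (46.4%) were of this kind, and 17 had a difference of exactly 0, or 15.5% beside 12.6% of all probe sets. ORAI1 and the brightest probe set of RYR2 were among the latter, at signals of 6.42 and 5.80. One probe set of ORAI2 had a difference of -0.45 that 90 probe sets shared. None of the 6 member probe sets at least 2-fold apart had a difference of this kind. How the shared values arose was not tested.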
